A study of Rattus norvegicus with 4 samples.

Results

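The genes described here are 10 that cells raise when oxygen is short or that carry glucose through glycolysis: Adm, Vegfa, Slc2a1, Slc16a1, Hk2, Pgk1, Eno1, Ldha, Pdk1 and Bnip3. They were chosen by symbol, and all 10 were found among the 16581 genes named on the array, with 20 probes between them. The cells were rat oligodendrocyte precursors (OPCs) in culture, dividing glia that can mature into myelinating oligodendrocytes, and their RNA was read on 1-colour arrays. The cells came from cortices of postnatal day 2 rats and grew for 3 days with bFGF and PDGF. Both groups then received a small RNA at 50 nM with a lipid reagent, either miR-125a-3p mimics (group miR-125a-3p, 2 samples) or a negative control (group miR-neg, 2 samples), and RNA was taken 48 h later. The labels do not say whether the samples of a group came from separate animals or cultures, so the p-values describe the spread between these samples only.

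When oxygen falls, hypoxia-inducible factors (HIFs) escape degradation, pair with ARNT proteins and switch on genes with a short core motif in their control regions. Some of these targets are secreted and act on vessels, such as adrenomedullin (Adm) and vascular endothelial growth factor A (Vegfa). Others raise glucose uptake, glycolysis and lactate export, and hold pyruvate back from mitochondria. Oligodendrocyte lineage cells use glycolysis heavily, and the lactate carrier made from Slc16a1 is known for supplying axons from mature oligodendrocytes.

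The mature microRNA is shown because it is the agent that differs between the groups. Its seed, bases 2 to 8, is in capitals, and the sequence is RefSeq's for the rat (build GRCr8, chr1:67350727-67350748, + strand).
rno-miR-125a-3p: aCAGGUGAgguucuugggagcc

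Promoters of 3 members are shown because their differences lay at the ends of the range below, Adm and Ldha on the lower side and Slc16a1 on the upper. Each runs from 250 bases before to 50 after the transcript start in RefSeq (build GRCr8), and capitals mark the HIF core motif in its forms ACGTG and GCGTG on either strand.
Adm (chr1:174179950-174180249, + strand): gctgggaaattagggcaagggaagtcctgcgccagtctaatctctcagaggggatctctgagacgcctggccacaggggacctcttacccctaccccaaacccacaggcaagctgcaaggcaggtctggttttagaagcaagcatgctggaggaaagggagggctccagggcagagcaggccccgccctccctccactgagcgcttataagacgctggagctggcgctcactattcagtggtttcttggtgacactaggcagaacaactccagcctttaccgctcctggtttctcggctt
Ldha (chr1:106507842-106508141, + strand): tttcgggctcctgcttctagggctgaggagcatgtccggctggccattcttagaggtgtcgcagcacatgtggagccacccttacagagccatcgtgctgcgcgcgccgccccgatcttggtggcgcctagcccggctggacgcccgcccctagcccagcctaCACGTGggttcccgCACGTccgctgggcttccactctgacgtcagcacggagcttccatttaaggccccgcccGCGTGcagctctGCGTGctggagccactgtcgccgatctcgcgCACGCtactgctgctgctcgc
Slc16a1 (chr2:194812410-194812709, + strand): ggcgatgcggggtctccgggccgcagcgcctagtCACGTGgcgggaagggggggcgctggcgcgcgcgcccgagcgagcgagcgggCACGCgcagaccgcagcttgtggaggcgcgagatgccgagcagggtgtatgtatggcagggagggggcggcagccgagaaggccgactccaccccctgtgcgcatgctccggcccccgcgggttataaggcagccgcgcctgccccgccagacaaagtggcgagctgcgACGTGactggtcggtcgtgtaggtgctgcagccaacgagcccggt

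The Ldha window held the form ACGTG 3 times and GCGTG 3 times, counting both strands, and the Slc16a1 window held them 3 times and 1 time. The 1 CACGTG in each window was counted 2 times under ACGTG, since that word reads the same on both strands. The Adm window held 0 of either form, which says only that these letters are not in these 300 bases. Over the table's promoters of members, 11 windows of 9 genes, 7 held at least 1 of the forms, against 41.6% of all 33469 promoters of that length. A match is not evidence of binding, and no measure of binding was analysed here.

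The 4 arrays had 26332 to 28138 probes well above background and 0 saturated spots. Levels below are log2 processed signals minus the 75th percentile of their array, so 0 stands for a fairly bright probe. All 20 member probes were well above background on all 4 arrays. Where a gene had several probes, the brightest was tested. The OPC markers Olig1, Olig2 and Sox10 were bright, with control means of 6.63, 6.35 and 6.47, and all 8 OPC markers with a probe were well above background on every array.

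The comparison asks how raising miR-125a-3p alters transcripts in these precursors. Adm stood apart from the other members: its level was 1.70-fold lower with the mimic, just short of the threshold. Ldha was 1.19-fold lower at each of its 3 probes. The remaining 8 members differed by between -0.16 and 0.21 on the log2 scale. In limma, 0 of the 10 members passed an adjusted p of 0.05, where 0.687% of all 23155 features did. At an unadjusted p under 0.05 there were 2 members, Adm and Ldha, beside 19.5% of all features. The groups did not overlap in 7 members, 3 higher and 4 lower with the mimic, and in 52.9% of all features. The median difference was -0.07 over the members and 0.01 over all features.

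**Figure D1:**
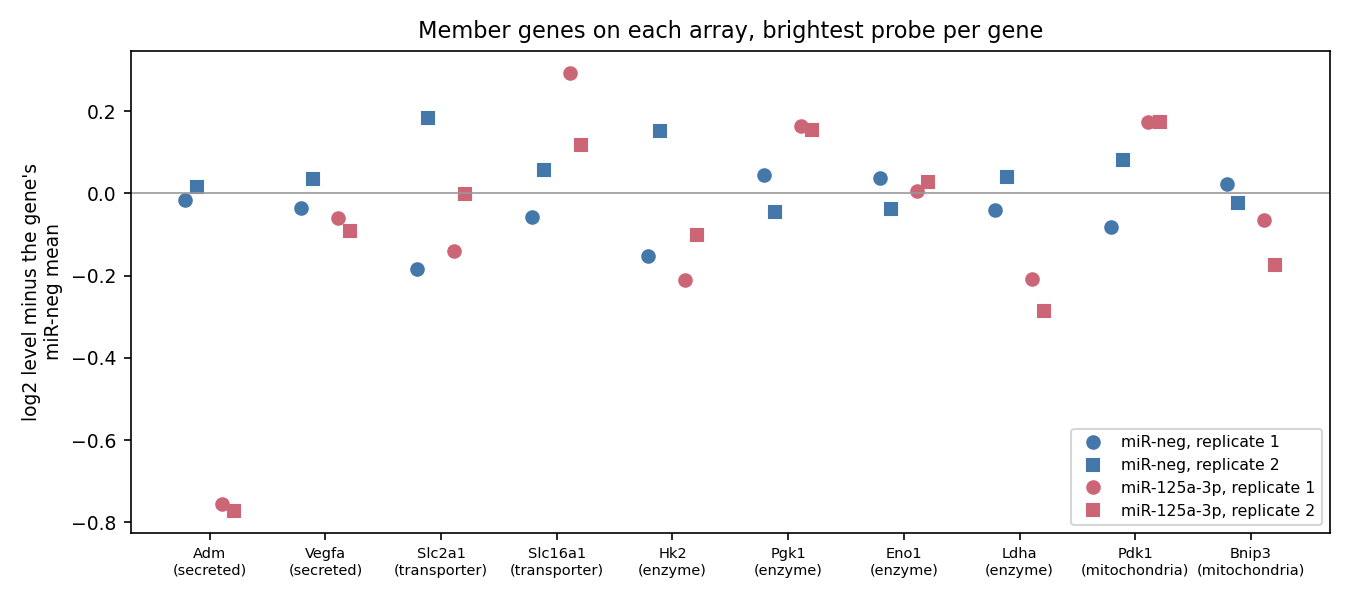
Log2 level of each member on each array minus that gene's miR-neg mean (vertical axis, log2 units), with circles and squares for replicates 1 and 2, blue for miR-neg and red for miR-125a-3p. Both miR-125a-3p points of Adm lie near -0.76, while all points of the other 9 genes lie much closer to 0.

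Adm encodes the precursor of adrenomedullin, a secreted peptide that widens vessels and acts through a receptor made of Calcrl and a Ramp protein. It read -0.69 and -0.65 in the controls and -1.43 and -1.44 with the mimic (log2 levels). The groups were thus far apart and the arrays within each nearly equal. In limma the mimic-minus-control difference was -0.76 (SE 0.07, limma's 95% interval -0.97 to -0.56, n = 2 per group), with an unadjusted p of 0.000453 and an adjusted p of 0.0534. By p-value Adm ranked 195 among the 23155 features, of which the first 159 passed. It passed on the probes well above background on all 4 arrays (adjusted p = 0.0252). In separate fits it passed with a variance that follows intensity (adjusted p = 0.00149) and with normexp background correction (-0.65, adjusted p = 0.00146). With 1 array left out its adjusted p was between 0.187 and 0.283.

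Adm had 1 probe, printed at 10 spots per array, which shows the measuring error on an array apart from the spread between samples. With flagged spots left out, 9 or 10 remained on each array. Single spots ran from -0.78 to -0.59 on the arrays labelled miR-neg and from -1.66 to -1.30 on those labelled miR-125a-3p, so not even single spots overlapped. The SD among spots of an array was between 0.04 and 0.10. Spots of 1 array hold the same RNA and are not replicates of the treatment.

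**Figure D2:**
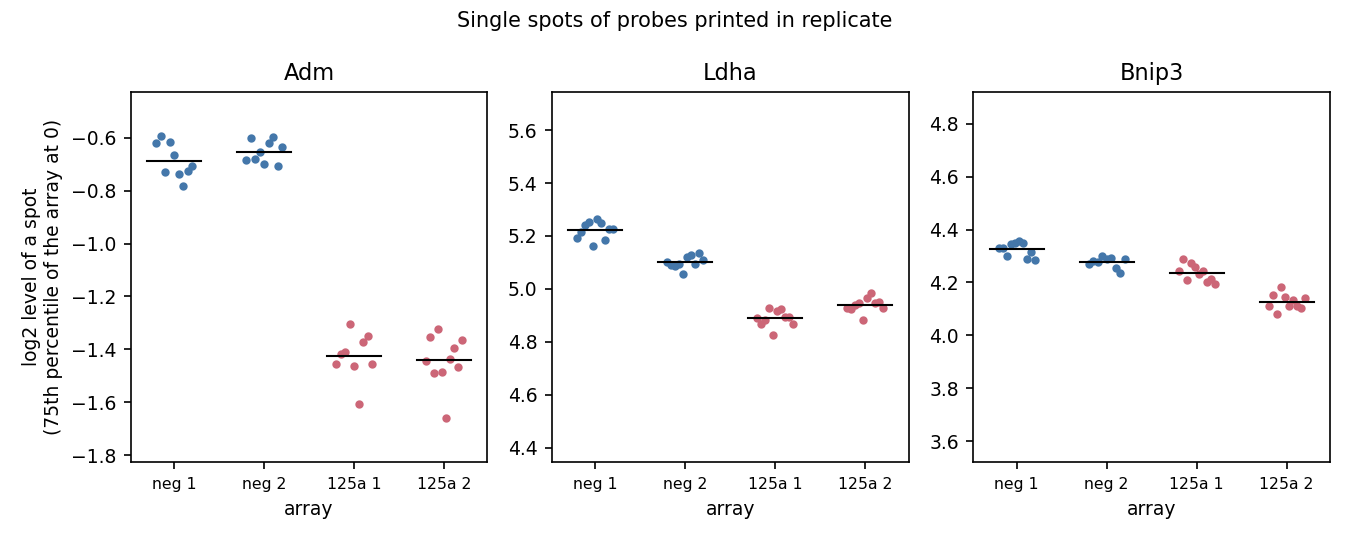
Log2 level of single spots (vertical axis, 75th percentile of the array at 0) on the 4 arrays for the probes of Adm, Ldha and Bnip3 that were printed 10 times, with a line at each array's mean and the same vertical span in every panel. Spots of Adm separate by group with a wide gap, those of Ldha with a small one, and the Bnip3 arrays lie close together.

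Vegfa, which encodes the growth factor that draws in vessels and is the other secreted member, showed no such gap. Its brightest probe read 3.52 and 3.59 in miR-neg and 3.49 and 3.46 in miR-125a-3p. The mimic arrays lay below both controls, but the nearest arrays of the groups were closer than the controls were to each other. For Vegfa the log2 difference came to -0.07 (SE 0.08, 95% interval -0.29 to 0.14, adjusted p = 0.654). The other probes of Vegfa gave -0.07 and -0.07, and their groups overlapped. Set beside Adm, the interval for Vegfa lies wholly above that of Adm.

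Of the transporters, Slc2a1 encodes the glucose carrier GLUT1 and Slc16a1 the monocarboxylate carrier MCT1, which moves lactate. Slc2a1 read 3.59 and 3.96 in the controls and 3.63 and 3.77 with the mimic, so both mimic arrays lay between the controls. Its log2 difference of -0.07 (SE 0.15, 95% interval -0.50 to 0.36) was smaller than the spread between the control arrays, and it turned to 0.11 without miR-neg replicate 2. Slc16a1 read 0.01 and 0.13 in the controls and 0.36 and 0.19 with the mimic. Here the groups did not overlap, with the mimic higher, but the nearest arrays were only slightly apart. Slc16a1 differed by 0.21 (SE 0.10, 95% interval -0.08 to 0.49, adjusted p = 0.368).

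Among the enzymes, Hk2 encodes a hexokinase that traps glucose at the entry of the pathway. It was at -1.85 and -1.54 in miR-neg and at -1.91 and -1.80 in miR-125a-3p, and the groups overlapped. Hk2 differed by -0.16 (SE 0.14, 95% interval -0.53 to 0.22, adjusted p = 0.585). It ranged from -0.31 without miR-neg replicate 1 to -0.0023 without miR-neg replicate 2. Pgk1 encodes phosphoglycerate kinase, the first enzyme of the pathway that yields ATP. It stood at 6.82 and 6.73 in the controls and at 6.94 and 6.92 with the mimic, higher on both mimic arrays. Pgk1 differed by 0.16 (SE 0.08, 95% interval -0.06 to 0.38, adjusted p = 0.37).

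Eno1 encodes enolase 1, which forms phosphoenolpyruvate. Levels were 5.94 and 5.87 in miR-neg and 5.91 and 5.93 in miR-125a-3p, and the arrays of the groups interleaved. Eno1 differed by 0.02 (SE 0.08, 95% interval -0.20 to 0.23, adjusted p = 0.927). Its other probes gave -0.03 and 0.04, also with overlapping groups. All 3 Eno1 probes were printed at 10 spots, and spots of an array varied with an SD of at most 0.05. The Eno1 difference changed sign without miR-neg replicate 2 (-0.021).

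Ldha encodes the lactate dehydrogenase subunit that turns pyruvate into lactate. The brightest probe read 8.30 and 8.38 in miR-neg and 8.14 and 8.06 in miR-125a-3p. Both mimic arrays were lower than both controls, by a margin larger than the gap within either group. The log2 difference was -0.25 (SE 0.08, 95% interval -0.48 to -0.02), with an unadjusted p of 0.0401 and an adjusted p of 0.234, so it did not pass. The other probes of Ldha differed by -0.25 and -0.25, with no overlap between groups at any of the 3. One of them, printed at 10 spots, read 5.22 and 5.10 in the controls and 4.89 and 4.94 with the mimic. Probes of a gene read the same RNA, so they are not independent evidence. Ldha, Eno1 and Pgk1 have processed copies in rodent genomes, and whether these probes also bind such copies was not tested.

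The last members act at mitochondria. Pdk1 encodes a kinase that switches off pyruvate dehydrogenase, and its brightest probe read -0.45 and -0.28 in miR-neg and -0.19 and -0.19 in miR-125a-3p. The mimic arrays were higher than both controls. The log2 difference was 0.17 (SE 0.09, 95% interval -0.08 to 0.43, adjusted p = 0.391), and the other probes gave 0.25, 0.18 and -0.04, each with overlapping groups. Bnip3 encodes a mitochondrial outer membrane protein that marks mitochondria for removal. It was at 4.33 and 4.28 in the controls and at 4.24 and 4.13 with the mimic, lower on both mimic arrays. The log2 difference was -0.12 (SE 0.08, 95% interval -0.35 to 0.11, adjusted p = 0.505), and the second Bnip3 probe gave 0.03 with overlapping groups. For both genes the probes differed in sign.

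**Figure D3:**
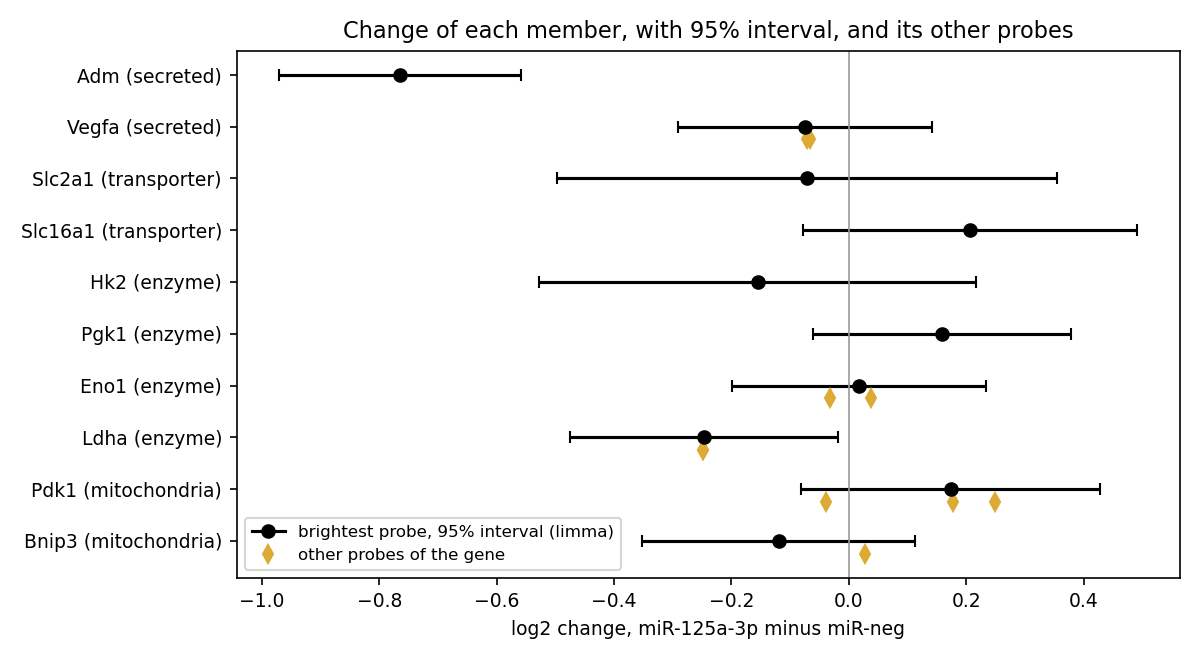
Log2 difference of each member, miR-125a-3p minus miR-neg (horizontal axis), with black points for the brightest probe, bars for limma's 95% interval and yellow diamonds for the gene's other probes. The Adm interval, -0.97 to -0.56, lies below the intervals of the other 9 members, and the diamonds of Vegfa and Ldha lie close to the black points.

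Set side by side, the secreted targets had differences of -0.76 and -0.07, with a median of -0.42, and the 6 enzymes and transporters ranged from -0.25 to 0.21, with a median of -0.03. The gap between these medians, -0.39, came from Adm, since Vegfa lay within the range of the enzymes and transporters. Of the 6, the groups did not overlap in Slc16a1 and Pgk1, both higher, and in Ldha, lower, beside 52.9% of all features. The 6 did not share a direction, with 3 above 0 and 3 below.

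HIF subunits and their regulators were measured next to the HIF targets, except the prolyl hydroxylase gene Egln1, for which no probe was named. Of 9 tested HIF subunits and regulators, 0 passed in limma (median -0.01). In this list 2 had an unadjusted p under 0.05, beside 19.5% of all features. Hif1a, the oxygen-regulated subunit, differed by 0.09 (SE 0.12, adjusted p = 0.734), but its second probe gave 0.59. Arnt2, a partner subunit, differed by -0.44 (SE 0.08, adjusted p = 0.106) and its second probe by 0.19. Arnt was likewise split between its probes, at 0.23 and -0.31. The prolyl hydroxylase genes Egln2 and Egln3, which mark HIF for degradation, lay at -0.22 and 0.10, and Hif3a, a dim gene, lay at 0.34. Vhl, part of the ligase that degrades HIF, lay at -0.01.

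Of 20 other glycolytic enzyme genes tested, 0 passed in limma and 2 had an unadjusted p under 0.05. The median was 0.10, with 13 above 0 and 7 below, and the groups did not overlap in 12, of which 10 were higher with the mimic. Over all features 52.9% did not overlap and 19.5% had an unadjusted p under 0.05. Pfkp, a phosphofructokinase that commits sugar to glycolysis, differed by 0.25 (SE 0.09, adjusted p = 0.241). Tpi1, triosephosphate isomerase, differed by 0.23 (SE 0.08, adjusted p = 0.249). Gapdh and Pkm were at 0.14 and 0.16. Their other probes lay between -0.01 and 0.14 for Gapdh and at 0.07 and 0.10 for Pkm. Ldhb, the other lactate dehydrogenase subunit, was at 0.16 (SE 0.08, adjusted p = 0.365). Ldha and Ldhb thus lay on opposite sides of 0, though neither passed.

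Of 6 tested genes of glucose and monocarboxylate transport, 0 passed in limma, and 0 had an unadjusted p under 0.05. Slc16a3, a lactate exporter, was dim and lay at -0.21, the glucose carrier gene Slc2a3 at 0.12, and Emb, which escorts lactate carriers to the membrane, at 0.08. Of 10 genes for pyruvate entry into mitochondria, 0 passed and 1 had an unadjusted p under 0.05. That gene was Pdp2, a phosphatase that switches pyruvate dehydrogenase back on (-0.33, SE 0.10, adjusted p = 0.208). Dlat, a subunit of that enzyme, and the pyruvate carrier gene Mpc2 lay at -0.16 and -0.16, and 7 of the 10 lay below 0 (median -0.08).

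Of 25 other intracellular hypoxia targets tested, 1 rose and 24 did not pass (median 0.06), where 0.687% of all features passed. An unadjusted p under 0.05 was found for 7, beside 19.5% of all features. Anxa2, which encodes a calcium-dependent membrane-binding protein, read 0.14 and 0.22 in miR-neg and 1.15 and 1.13 in miR-125a-3p. The groups were far apart, and it rose by 0.95 (SE 0.08, adjusted p = 0.0438). It did not pass with quantile normalization, without a filter on dim probes, with the replicate block or without any 1 of the 4 arrays. Pgm1, a sugar phosphate mutase, lay at 0.44 and the transcription factor gene Bhlhe40 at -0.31, and neither passed. The other genes at an unadjusted p under 0.05 were all higher with the mimic, with Ddit4, an inhibitor of mTOR signalling, at 0.37, the heme oxygenase gene Hmox1 at 0.47, and the collagen-modifying enzyme genes Plod2 and P4ha2 at 0.27 and 0.28. These 4 were named after their values were seen.

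Of 14 other secreted hypoxia targets with a probe, 8 were too dim to test, among them Edn1 and Epo. Of the remaining 6, 0 passed in limma and 3 had an unadjusted p under 0.05, Angptl4 among them, beside 19.5% of all features. Angptl4, which encodes an inhibitor of lipoprotein lipase, was well above background on 0 control arrays and on both mimic arrays, so it was tested only through the group where it was high, and its p and direction were favoured by the filter. With dim control signals raised to the lowest signal well above background, it was 2.76-fold higher. That is not a lower bound, since brighter signals, such as Stc2 at 22.7 on miR-neg replicate 1, were not well above background. The log2 difference was 2.23 as measured (adjusted p = 0.0635 in limma) and 0.33 with normexp. Tgfb3, a growth factor gene, lay at 0.53 (SE 0.11, adjusted p = 0.124) and Igfbp3, which binds insulin-like growth factors, at 0.50 (SE 0.18, adjusted p = 0.253). Pgf, a relative of Vegfa, lay at -0.15 and Nampt at 0.10, both named after their values were seen. The second Nampt probe lay at -0.39.

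Receptors for the secreted members gave the second passing gene. Of 8 tested, 1 rose and 7 did not pass, where 0.687% of all features passed. At an unadjusted p under 0.05 there were 4, beside 19.5% of all features. Nrp2, a coreceptor for VEGF proteins and semaphorins, read -2.91 and -2.98 in miR-neg and -2.10 and -2.09 in miR-125a-3p, and it rose by 0.85 (SE 0.08, adjusted p = 0.0494), close to the threshold. Nrp2 failed under the same settings as Anxa2 and also with the deposited table, with the mean of probes and with every probe as a feature, and normexp gave 0.50. Ackr3, a scavenger receptor that also binds adrenomedullin, differed by -1.05 (SE 0.17, adjusted p = 0.0892). Calcrl, the core of the adrenomedullin receptor, lay at 0.14, and its partners at 0.14 for Ramp1, 0.44 for Ramp2 and -0.68 for Ramp3. None of these partners passed. Of the 84 genes tested in all these lists, 2 passed in limma, beside 0.687% of all features. An unadjusted p under 0.05 was reached by 19 of the 84, beside 19.5% of all features.

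**Figure D4:**
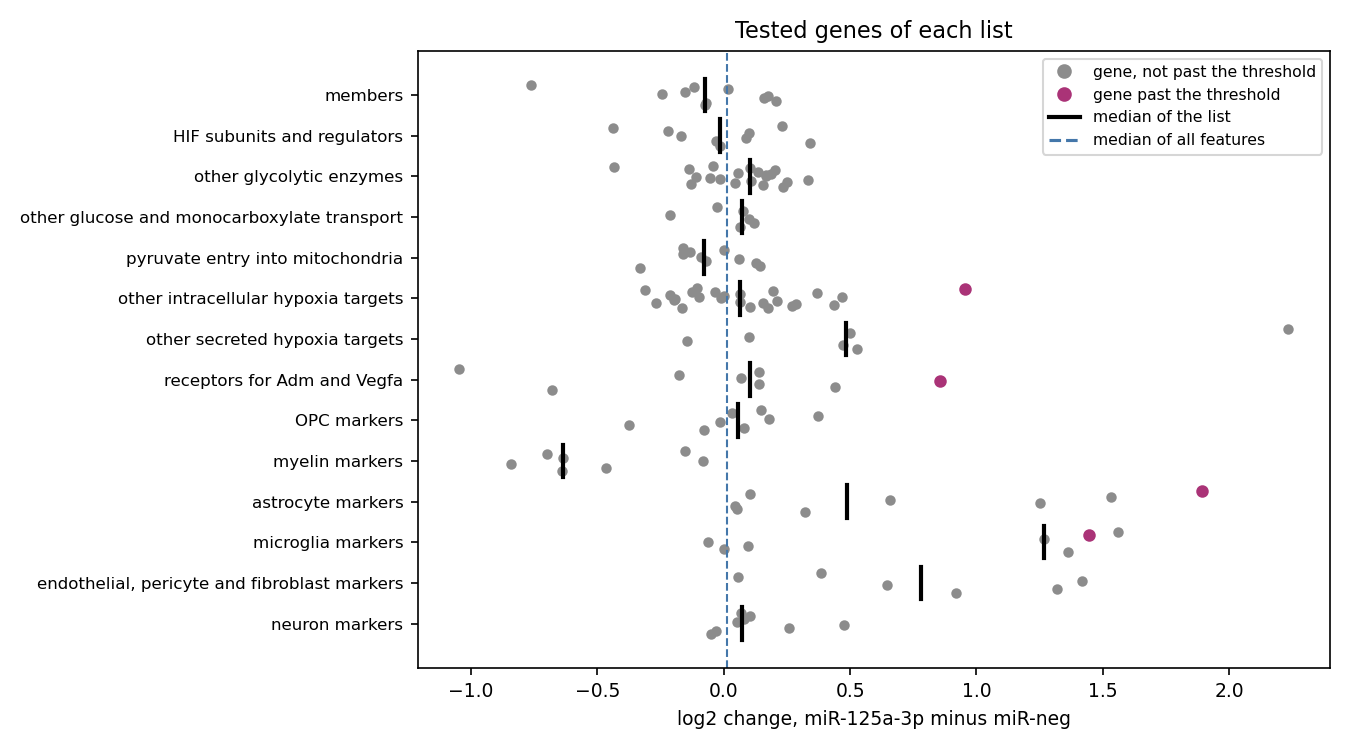
Log2 difference, miR-125a-3p minus miR-neg (horizontal axis), of the tested genes of each list, grey where the gene did not pass an adjusted p of 0.05 and purple where it did, with a black bar at the median of each list and a dashed line at the median of all features, 0.01. The glycolysis and transport rows crowd around 0, and the myelin row lies to the left of the line and the astrocyte, microglia and vessel or fibroblast rows mostly to its right.

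Markers of other cells and stages were read on the same arrays. Of 7 myelin markers, 0 passed and all 7 lay below 0 (median -0.64), and the summed linear level ran from 839 to 865 in miR-neg and from 558 to 575 in miR-125a-3p. Mag and Mbp lay at -0.70 and -0.64. All 8 astrocyte markers lay above 0, with sums of 182 to 194 and 205 to 208, and Aldh1l1 rose by 1.89 (SE 0.09, adjusted p = 0.0333; 1.15 with normexp) while Aqp4 (1.53) and Gfap (0.66) did not pass. Aldoc belongs to this list and to the enzymes and lay at 0.10. It read 7.29 and 7.38 in miR-neg and 7.43 and 7.45 in miR-125a-3p. On the linear scale Aldoc made up most of the astrocyte sums, which therefore mainly follow that gene. Of 7 tested microglia markers, 5 lay above 0, with sums of 3.25 to 3.58 and 3.68 to 4.19. C1qa rose by 1.44 (SE 0.10, adjusted p = 0.0373; 0.57 with normexp). Aif1 (1.56; 0.76 with normexp) and Tyrobp (1.36; 0.81 with normexp) did not pass. The others, named after their values were seen, were C1qb at 1.27, Itgam at 0.09, Cx3cr1 at -0.06 and P2ry12 at -0.00075. Of all these, Cx3cr1 and P2ry12 were the brightest. Csf1r was well above background on 1 array only.

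Of 12 endothelial, pericyte and fibroblast markers, 6 were too dim to test. The other 6 lay above 0 and did not pass, and the filter partly set their direction, since Pdgfrb was well above background on the mimic arrays only. Their sums ran from 0.4988 to 0.4999 in miR-neg and from 0.747 to 0.905 in miR-125a-3p. Col3a1, Col1a2 and Col1a1 were at 1.32, 0.64 and 1.42, and at 0.35, 0.42 and 0.84 with normexp. Col3a1 was well above background on only 1 control array. Pecam1, Kcnj8, Dcn and Lum were well above background on 0 arrays, and Cldn5 and Rgs5 on 1 each. The 8 neuron markers had a median of 0.07, with Snap25, Stmn2 and Nefl at 0.48, 0.26 and 0.10, and sums of 11.5 to 12.9 and 12.3 to 13.1. The 8 OPC markers had a median of 0.06, with Pdgfra and Neu4 at -0.37 and 0.37, Olig1 at 0.18, and sums of 356 to 378 and 359 to 378. In such bulk RNA, fewer cells of a type and less RNA per cell cannot be told apart. The part of these cells in the values of Adm, Ldha, Anxa2, Nrp2 and Angptl4 was not tested.

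**Figure D5:**
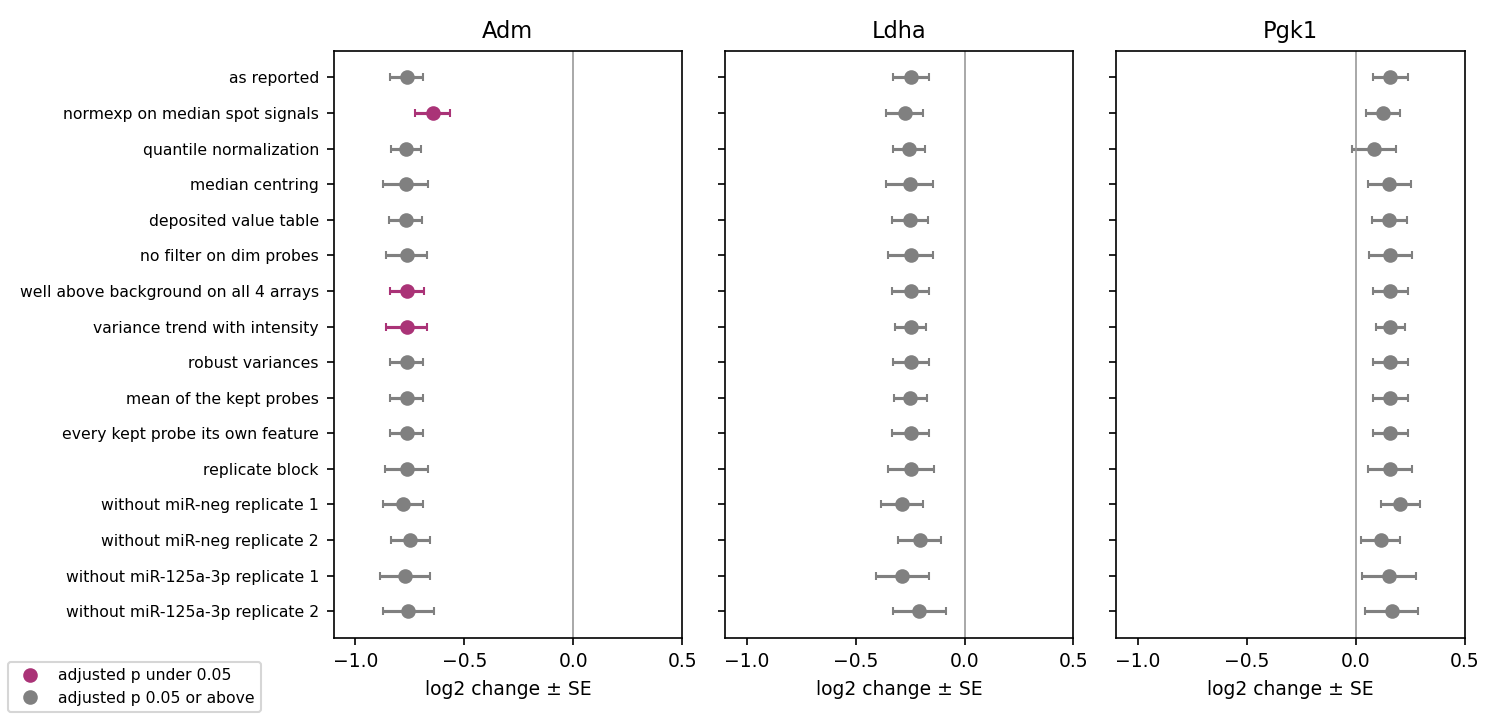
Log2 difference ± SE of Adm, Ldha and Pgk1 (horizontal axis) under each way of processing the arrays (rows), purple where the adjusted p was under 0.05 and grey otherwise. The points of Adm stay between -0.78 and -0.65 with 3 in purple, and those of Ldha stay between -0.29 and -0.21 with 0 in purple.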

How the data were processed

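Total RNA (100 ng per sample) was labelled with Cy3 and hybridised to 1-colour Agilent rat arrays, 1 per sample. The deposited scanner files hold intensity per spot, which Agilent Feature Extraction (version 10.7.3.1 in the submitters' processing notes) had background-subtracted, per the file headers. The deposited value table holds log2 values that equalled the log2 intensity minus 1 constant per array within 0.01, with column medians of -4.07, -4.15, -4.08 and -4.14.

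From the intensities, control and outlier-flagged spots were left out, log2 intensities were averaged over a probe's spots, and the 75th percentile of the array was taken off. Of 45598 probes, 27250 were kept, with at least 0.5 of their spots well above background on at least 2 arrays. RefSeq accessions named 21109 probes through the GRCr8 gene table, and the array itself was designed on rn4. The files hold no gene name column. The brightest kept probe stood for its gene, which left 23155 features. The two-sided test was limma 3.58.1 (R 4.3.3; lmFit then eBayes), and p-values were adjusted by Benjamini-Hochberg across every feature. With 2 samples a group, the smallest p of an exact permutation test is 0.333. The fit was tested on simulated data drawn from its own variance model, which cannot show whether these arrays follow that model. With 4 arrays on 1 slide, their number limits the precision.

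All members are named, and of each other list every gene that passed plus the 3 with the smallest p; Hif1a, Arnt, Egln3, Vhl, Gapdh, Pkm, Ldhb, Calcrl, Ramp1, Olig1, Olig2 and Sox10 were added for their roles after their values were seen. Some genes that the rule names are not reported here. The members and lists were chosen with earlier results of these data known. The fit has no block for the replicate numbers that the groups share. Array positions on the slide followed the group along 1 axis, where group and position cannot be told apart, and the replicate number along the other. The alternatives are in the closing section.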

Additional observations from a re-analysis of the deposited data

How the results depend on the processing

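All 10 members were recomputed under 16 other settings. Vegfa, Slc16a1, Hk2, Pgk1, Ldha, Pdk1, Bnip3 and Adm kept their direction in all of them. Leaving out 1 array gave Slc2a1 from -0.25 to 0.11 and Eno1 from -0.021 to 0.056, each with its sign turned only without miR-neg replicate 2. Adm lay at -0.65 with normexp (adjusted p = 0.00146), chosen after seeing the data because the files hold no mean spot signal, and at -0.76 on probes well above background on all 4 arrays, with a variance trend and at a threshold of 0.1, where it passed. Its adjusted p ranged from 0.00146 to 0.283 over the settings. The count of members past the threshold was 1 in those 4 settings and 0 in the others, including quantile normalization. The gap between the medians of secreted targets and of enzymes and transporters ran from -0.45 to -0.34 with 1 array left out.

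The count of other pathway genes past the threshold, 2, became 10 with normexp, 12 with a variance trend, 4 at a threshold of 0.1, 1 with the deposited table, the mean of probes or every probe as a feature, and 0 with quantile normalization, without a filter on dim probes and with the replicate number as a block. Removal of any single array gave 0 to 0. Deviations of same-numbered arrays correlated at 0.0504, and 2 pairs cannot show whether the numbers pair the samples. With the block, which is also the block on slide position, Adm had an adjusted p of 0.119 and 0 of 23155 features passed. Normexp, the variance trend and the filters alter the p-values of all features. The shares of all features that passed under those settings are not given here. The counts of passing members and pathway genes there thus cannot be read as particular to these genes. For the shifts between settings the cause was not tested. Normexp on mean signals was not run.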
